A study of Mus musculus with 30 samples.

Results

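Hydroxytyrosol was compared with tyrosol by the bacteria in the feces of the mice that received them. The comparison held 12 of the 30 mice of the series, 6 on each compound, chosen by the treatment in the labels. All 12 were female C57BL/6 mice (C57BL/6J in the methods), labelled as 6 weeks old, on the high-fructose diet, in which fructose made up 60% by the study's methods. By the methods 6 weeks was the age at purchase, before acclimation and feeding, and feces were collected at the end of treatment. Tyrosol was given by gavage at 23 mg/kg and hydroxytyrosol at 26 mg/kg, doses that the study derived from its salidroside dose by molar conversion, so the doses by weight differed. The diet was fed for 8 weeks according to the methods, but for 12 weeks according to the legends, which equals the 84 days given elsewhere. Levels in the 6 control mice (normal diet with saline) and the 6 model mice (high-fructose diet with saline) are given beside many of the named taxa, without a test against them. The sources used here give no cage, litter or sequencing batch, so the p-values measure the spread between these mice, and a shared cage and the treatment cannot be told apart.

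Tyrosol and hydroxytyrosol are phenylethanol compounds of olive oil, and tyrosol is also the part of salidroside that remains when its glucose is removed. Hydroxytyrosol carries an additional hydroxyl group on the ring, next to the first, which makes it a catechol. The mouse colon is normally dominated by anaerobes: Clostridiales (Ruminococcaceae and Lachnospiraceae) and Bacteroidales, which ferment fiber and host glycans, with lactobacilli and few enterobacteria beside them. Acinetobacter, staphylococci and Planococcaceae are aerobes or facultative anaerobes of soil, water, skin and stored food, and are usually scarce in feces. The gene for 16S rRNA was amplified from each sample, and each distinct sequence was counted as an amplicon sequence variant (ASV). Shares of counts are therefore relative to all bacteria in a sample and do not give numbers of cells.

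The filtered table held 71930 to 101386 counts per hydroxytyrosol mouse and 88185 to 106609 per tyrosol mouse, with medians of 86316.5 and 100956. The sequenced input differed a little, at 135619 against 141537 reads on average (exact permutation test, two-sided, p = 0.0498). Diversity was for that reason taken from the table at an even depth of 39768 counts per mouse. Of all counts in the 12 mice, 9.63% came without a named genus, from 4.11% to 20.9% per mouse. At this depth a count of 0 allows a share of up to 0.00417% in the shallowest hydroxytyrosol mouse, and such limits cover counting error only. With 6 mice a side the exact test cannot give a p below 0.00216.

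The leading genus varied from mouse to mouse with both compounds, and 3 genera led the tyrosol samples and 4 the hydroxytyrosol samples. Acinetobacter, a strictly aerobic genus, was the largest genus in tyrosol mice 2, 3, 4 and 5, with 59.6%, 75.7%, 68.2% and 60.9% of counts. Of the remaining tyrosol mice, mouse 1 was led by Jeotgalicoccus, a salt-tolerant relative of the staphylococci, with 30.2%, and mouse 6 by Staphylococcus with 40.6%. Shigella, an enterobacterium whose 16S rRNA gene is hardly separable from that of Escherichia, led hydroxytyrosol mouse 1 with 70.5% and mouse 6 with 47.3%. Jeotgalicoccus led mouse 3 with 35.9% and mouse 5 with 54.9%. Sporosarcina, a spore-forming aerobe of soil, led mouse 4 with 43.1%, and Acinetobacter led mouse 2 with 44.1%. A single genus therefore took at least 30.2% of the counts in each of the 12 samples. The share of the largest genus averaged 49.3% with hydroxytyrosol and 55.9% with tyrosol, a difference of -6.54 points with a 95% interval of -25.7 to 12.9 (exact permutation test, two-sided, p = 0.450).

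**Figure D1:**
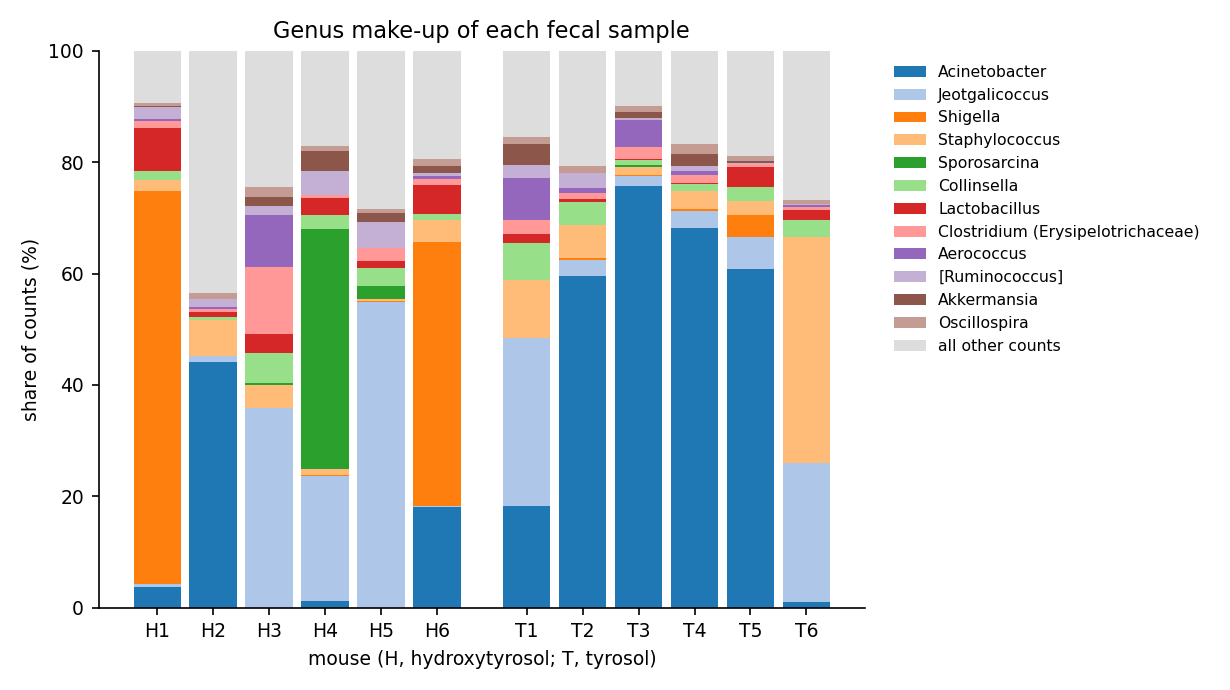
Share of counts (%, vertical axis) of the 12 genera with the highest mean share, stacked for each hydroxytyrosol mouse (H1 to H6) and tyrosol mouse (T1 to T6), with all other counts in gray. Acinetobacter takes 59.6% to 75.7% in T2 to T5, while Shigella, Jeotgalicoccus, Sporosarcina or Acinetobacter leads the hydroxytyrosol mice.

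Acinetobacter showed the largest difference in mean share among the named genera. Its share was 0.0312% at the lowest, 2.44% at the median and 44.1% at the highest with hydroxytyrosol. The corresponding values with tyrosol were 1.05%, 60.2% and 75.7%. The groups overlapped, since hydroxytyrosol mice 1, 2, 4 and 6 lay above the lowest tyrosol mouse, and hydroxytyrosol was the higher one in 5 of the 36 pairs of mice. The mean was 11.2% ± 17.5 (SD, n = 6) against 47.3% ± 30.2 (SD, n = 6), a difference of -36.1 points with an interval of -66.6 to -5.11. The exact permutation test gave p = 0.0325, which became 0.503 after Benjamini-Hochberg adjustment over the 31 share tests, so the difference did not pass. Without 1 mouse at a time, the unadjusted p went above 0.05 in 8 of 12 cases and reached 0.0649. The model mice averaged 53.5% and the control mice 20.5%.

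Acinetobacter belonged to a list of aerobic genera of soil, water and skin, 24 of which were found in the 12 mice. The list summed to 22.9% with hydroxytyrosol and 49.2% with tyrosol (exact permutation test, p = 0.132). The other leading members had higher means with hydroxytyrosol: Sporosarcina averaged 7.61% against 0.0904% (exact permutation test, p = 0.279), Kurthia 1.71% against 0.0636% (p = 0.879) and Lysinibacillus 1.10% against 0.290%. Sporosarcina rested on hydroxytyrosol mouse 4, since the other 5 had at most 2.19%, and Kurthia rested on hydroxytyrosol mouse 2, with 10.3% there and 0.00503% or less in the others. Sporosarcina averaged 6.99% in the model mice and had no count in the control mice. Of the 9 members abundant enough for the fit across genera, 7 had a positive log2 fold change and 0 passed. The median was 0.67. Over all 96 genera tested 57 had a positive log2 fold change, with a median of 0.31, and the lists below are to be read beside these values.

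The shares of the 5 named phyla overlapped widely between the compounds. Proteobacteria, the phylum of Acinetobacter and Shigella, took 34.6% ± 32.9 (SD, n = 6) with hydroxytyrosol and 50.9% ± 31.2 (SD, n = 6) with tyrosol. The interval of that difference ran from -62.0 to 25.8 points (exact permutation test, p = 0.344). Firmicutes averaged 58.8% against 41.0% (interval -23.0 to 61.3, p = 0.333 by the exact permutation test). Bacteroidetes averaged 2.09% against 1.47% (interval -0.895 to 2.14), and Actinobacteria 2.71% against 4.52% (interval -4.24 to 0.722). Bacteroidetes were scarce with either compound, as in the model mice at 1.10%, while the control mice held 21.6%. The log2 ratio of Firmicutes to Bacteroidetes was 4.74 with hydroxytyrosol and 5.00 with tyrosol (interval of the difference -2.61 to 1.99). These directions depended on the share of Acinetobacter. On totals without that genus the difference, hydroxytyrosol minus tyrosol, turned to 16.8 points for Proteobacteria, -6.11 for Firmicutes and -1.62 for Bacteroidetes. That of Actinobacteria grew from -1.81 to -6.61 (exact permutation test, unadjusted p = 0.00433). On all counts the exact permutation test of Actinobacteria gave p = 0.128, adjusted 0.585. Its edgeR log2 fold change was -0.083 (edgeR adjusted p = 0.926). In edgeR's quasi-likelihood test 0 of 9 phyla, or 0.0%, passed an adjusted p of 0.05, with 1 phylum under an unadjusted p of 0.05 and 3 called by DESeq2. That 1 was the counts placed no lower than Bacteria, whose shares did not overlap (log2 fold change -2.46, SE 0.82, edgeR adjusted p = 0.0816) and which are described below by genus.

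Shigella and Jeotgalicoccus had higher means with hydroxytyrosol that rested on few mice. Shigella took 70.5% and 47.3% in hydroxytyrosol mice 1 and 6, but 0.0014% to 0.0898% in the other 4. With tyrosol it ranged from 0.0318% to 3.86%, so the medians, 0.0760% and 0.276%, ran the other way from the means, 19.7% and 0.824%. The exact permutation test on the means gave p = 0.439, and the interval of the difference was -1.94 to 47.3 points. The model mice averaged 0.904% Shigella and the control mice 7.46%. Jeotgalicoccus averaged 19.2% against 11.4% (p = 0.543 by the exact permutation test), a direction that turned on the log10 scale (-0.18) and by ranks (-0.667), and the model and control mice had 4.32% and 0.0779%. Staphylococcus averaged 2.98% against 10.7% (exact permutation test, p = 0.186), with tyrosol mouse 6 at 40.6% and the other 5 at 10.3% or less. The list of staphylococci and relatives, which adds Aerococcus, Salinicoccus, Macrococcus and Facklamia, summed to 24.5% and 26.5% (interval of the difference -35.3 to 30.8). In that list 2 of 7 members fitted had a positive log2 fold change, with a median of -1.47, and 0 passed. Enterobacteria as a list, Shigella and Proteus, summed to 19.9% and 1.02% (exact permutation test, p = 0.323), and 0 of 2 passed.

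Lactic acid bacteria, fermenters of sugar to lactate, had a higher mean share with hydroxytyrosol that did not pass after adjustment. Their listed genera summed to 3.06% at the lowest, 3.97% at the median and 8.12% at the highest with hydroxytyrosol, and to 0.649%, 1.83% and 4.42% with tyrosol. The ranges overlapped, and hydroxytyrosol was higher in 31 of 36 pairs. The difference in means, 5.03% against 2.10%, was 2.92 points with an interval of 0.434 to 5.49 (exact permutation test, p = 0.0281, adjusted 0.503). On a total without Acinetobacter the difference was 1.49 points (exact permutation test, p = 0.405), and without 1 mouse at a time the unadjusted p went above 0.05 in 5 of 12 cases. Lactobacillus gave most of it, at 3.59% against 1.31% (exact permutation test, p = 0.0779, higher in 28 of 36 pairs). Enterococcus averaged 0.838% against 0.547% (exact permutation test, p = 0.481), Streptococcus 0.554% against 0.212% and Lactococcus 0.0294% against 0.0195%. The direction of Enterococcus turned on the log10 scale (-0.047) and on totals without Acinetobacter (-0.135 points). Of the list's 4 genera fitted, 4 had a positive log2 fold change, with a median of 1.07, and 0 passed. The control mice held 15.8% of lactic acid bacteria and 13.96% of Lactobacillus, and the model mice 5.80% and 1.54%.

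The anaerobes of the colon differed by less than their spread as groups. Bacteroidales summed to 1.70% with hydroxytyrosol and 1.36% with tyrosol (interval of the difference -1.02 to 1.68), against 21.0% in the control mice. Within that order, unnamed members of the family S24-7 averaged 0.843% against 0.814%, Odoribacter 0.411% against 0.0786%, Bacteroides 0.230% against 0.183% and Parabacteroides 0.101% against 0.254%. In the order's list 6 of 7 genera fitted had a positive log2 fold change (median 0.58), beside 57 of 96 over all genera, and 0 passed. The listed Clostridiales summed to 4.30% against 2.93% (interval -1.02 to 3.84), with 8 of 12 positive, a median of 0.27 and 0 passing. Among them [Ruminococcus], a mucin-degrading group of Lachnospiraceae, averaged 2.45% against 1.08% (exact permutation test, p = 0.130), Oscillospira 1.05% against 1.22% (p = 0.478), Blautia 0.266% against 0.216% and Coprococcus 0.108% against 0.0648%. On totals without Acinetobacter the direction turned for the listed Bacteroidales (-1.78 points) and the listed Clostridiales (-2.07 points), and also for Ruminococcus (-0.00824 points). Ruminococcus of Ruminococcaceae averaged 0.0447% against 0.0245% (exact permutation test, p = 0.0801), beside 0.825% in the control mice.

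Collinsella, a sugar-fermenting anaerobe of the Actinobacteria, was common with both compounds. It averaged 2.40% with hydroxytyrosol and 3.03% with tyrosol (interval of the difference -3.18 to 1.87), but 0.000996% in the model mice and 0.000598% in the control mice. Nearly the whole of it was ASV_11531, assigned to Collinsella stercoris, with 2.39% and 3.002%. With Adlercreutzia and Bifidobacterium the list of gut Actinobacteria summed to 2.48% and 3.08% (p = 0.602 by the exact permutation test), with 2 of 3 log2 fold changes positive, a median of 0.56 and 0 passing. Akkermansia, which feeds on mucin, averaged 1.42% against 1.202% (interval -1.59 to 1.95) and had no count in the control mice. Together with Mucispirillum, 0.290% against 0.337%, it gave 1.71% and 1.54% for the bacteria of the mucus layer (1 of 2 positive, 0 passing). The Mucispirillum means came mostly from hydroxytyrosol mouse 5 with 1.31% and tyrosol mice 6 and 1 with 1.08% and 0.732%, the rest holding at most 0.373%. On totals without Acinetobacter these directions turned too, to -1.20 points for Akkermansia and -1.33 for the mucus layer. The whole family Erysipelotrichaceae averaged 5.22% against 2.08% (edgeR adjusted p = 0.318), with hydroxytyrosol mouse 3 at 19.7%. Its listed genera, which leave out its Clostridium, summed to 2.25% against 0.706% (p = 0.247 by the exact permutation test). The list was led by [Eubacterium] with 1.23% against 0.0743% and Allobaculum with 0.953% against 0.545%. Hydroxytyrosol mouse 3 held 6.75% [Eubacterium] and the other 5 at most 0.390%. The log2 fold changes of the 4 listed genera had a median of 1.0, 3 were positive and 0 passed. Other gut Proteobacteria, Desulfovibrio, Helicobacter and Sutterella among them, summed to 0.245% and 0.310% (1 of 3 positive, median -0.29, 0 passing). Fusobacterium had no count in any of the 12 mice, and plastid sequences reached at most 0.00478% of counts.

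In the fit across genera, 1 of 96 passed, or 1.04%, and it has no genus name. The counts that the taxonomy could place no lower than Bacteria took 0.0241% to 0.132% with hydroxytyrosol (median 0.0446%) and 0.265% to 0.789% with tyrosol (median 0.415%). No hydroxytyrosol mouse reached the lowest tyrosol mouse. The log2 fold change, hydroxytyrosol over tyrosol, was -2.91 (SE 0.63, edgeR adjusted p = 0.0381), and the model and control mice averaged 0.302% and 0.166%. Over the fits that left out 1 mouse or changed a setting the adjusted p went above 0.05 in 12 of 22 cases, with log2 fold changes of -3.31 to -2.57. The edgeR adjusted p reached 0.129 without 1 mouse and 0.254 with the replicate number as a block, although those numbers did not pair the mice. The same counts were the single family of 55 to pass, or 1.82%, with -3.04 (SE 0.63, edgeR adjusted p = 0.0161, but 0.0641 without hydroxytyrosol mouse 6, 0.0928 with the replicate block and 0.218 with all 30 mice in the fit). Unadjusted p was under 0.05 for 20 genera, 12 higher and 8 lower with hydroxytyrosol, and DESeq2 called 15 genera.

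None of the other genera passed, and those of next smallest p included several Bacteroidales with higher values and Corynebacterium and Alkanindiges with lower values in hydroxytyrosol mice. Alistipes, a bile-resistant member of the Bacteroidales, ranged from 0.0060% to 0.0744% with hydroxytyrosol and from 0 to 0.0045% with tyrosol, without overlap (log2 fold change 4.14, SE 1.14, edgeR adjusted p = 0.0949). Shares that did not overlap were found in 3 of 96 genera, or 3.12%. The third was Sediminibacterium, an aerobe of fresh water from the Chitinophagaceae, with 0.0247% to 0.265% against 0.0068% to 0.0221% (log2 fold change 2.63, edgeR adjusted p = 0.0949). Odoribacter and Butyricimonas, both butyrate producers, had log2 fold changes of 2.68 and 3.82 (edgeR adjusted p = 0.144 for each). Odoribacter averaged 0.887% in the control mice and 0.0055% in the model mice. Butyricimonas averaged 0.0506% with hydroxytyrosol and 0.0042% with tyrosol and had no count in the control mice. Atopostipes had a log2 fold change of 8.72, with 8.15% in hydroxytyrosol mouse 5 and at most 0.825% in the rest of that group. An unnamed genus of Aerococcaceae had 6.12, from hydroxytyrosol mice 4 and 5 with 1.65% and 0.881%, while 3 of the group had no count and hydroxytyrosol was higher in 18 of 36 pairs. Unnamed Bacteroidales had 2.51. On the other side, Corynebacterium, a genus of skin and mucosa, averaged 0.0901% against 0.652% (log2 fold change -2.82, edgeR adjusted p = 0.0949), and Alkanindiges, a relative of Acinetobacter, 0.0030% against 0.0510% (-4.07, edgeR adjusted p = 0.144).

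None of the other families passed. Micrococcaceae, soil actinobacteria that here were mainly Arthrobacter, averaged 0.0967% against 0.728% (log2 fold change -2.77, edgeR adjusted p = 0.0926). Corynebacteriaceae had -2.77, [Odoribacteraceae] 2.31 and unnamed Bacteroidales 2.57, each at an adjusted p of 0.0926, and Chitinophagaceae 1.90 at 0.0959. Planococcaceae averaged 12.4% against 1.17% (log2 fold change 3.34, edgeR adjusted p = 0.165) and Enterobacteriaceae 19.99% against 1.11% (4.36, edgeR adjusted p = 0.221). Hydroxytyrosol mice 4 and 2 held 44.6% and 24.8% Planococcaceae and the rest at most 2.25% (group medians 2.07% and 0.954%). Hydroxytyrosol mice 1 and 6 held 70.8% and 47.4% Enterobacteriaceae and the rest at most 0.855% (group medians 0.755% and 0.675%). The control mice averaged 15.1% and 11.3% of these 2 families and the model mice 8.54% and 1.77%. Veillonellaceae, lactate-using anaerobes, averaged 0.0093% against 0.316% (-4.39, edgeR adjusted p = 0.265). Tyrosol mice 1 and 4 gave that mean, with 1.25% and 0.647%, while 3 tyrosol mice had no count, and the medians ran the other way, 0.0047% with hydroxytyrosol and 0.0010% with tyrosol.

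**Figure D2:**
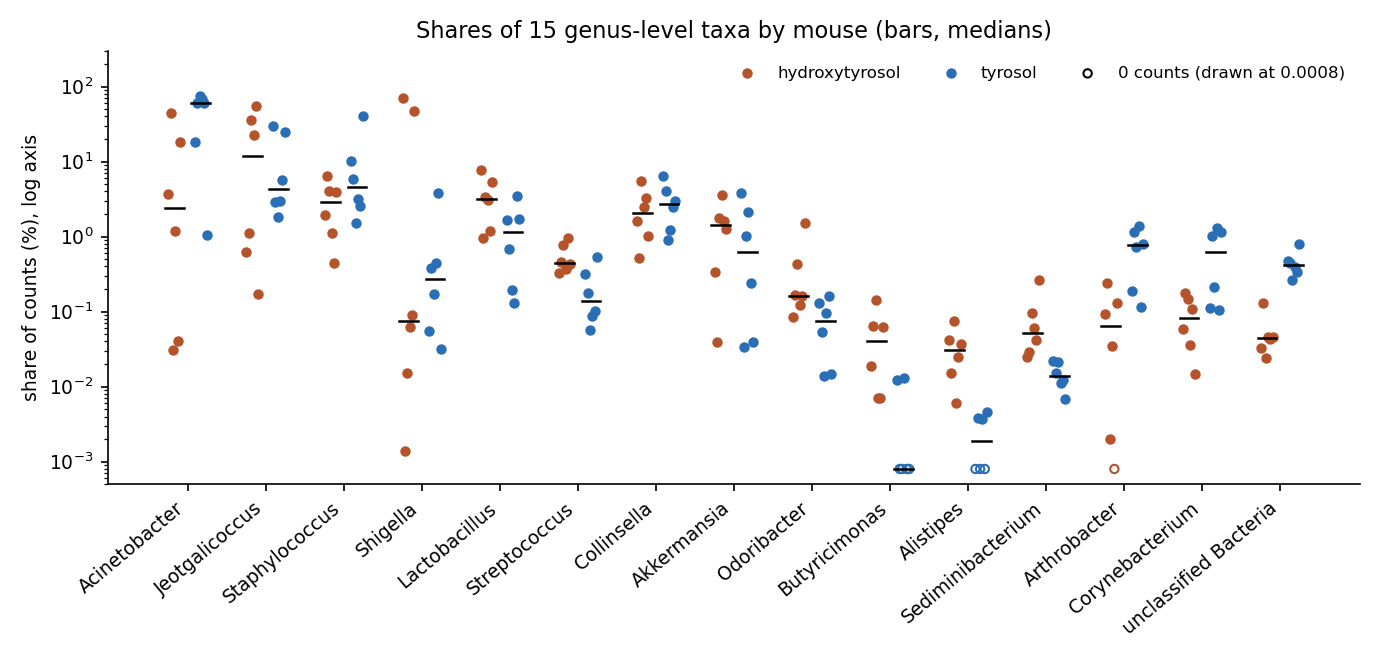
Share of counts (%, logarithmic axis) of 15 genus-level taxa in each hydroxytyrosol (orange) and tyrosol (blue) mouse, with the group median as a bar and samples without a count as open circles drawn at 0.0008. The groups do not overlap for Alistipes and Sediminibacterium, higher with hydroxytyrosol, and for counts placed no lower than Bacteria, 0.0241% to 0.132% against 0.265% to 0.789%.

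Fewer ASVs were found per sample with hydroxytyrosol, by a test that passed before but not after adjustment. Chao1, an estimate of the number of ASVs that includes unseen ones, was 561 at the lowest, 665 at the median and 1038 at the highest with hydroxytyrosol, and 860, 993 and 1276 with tyrosol. Hydroxytyrosol mouse 2 alone lay among the tyrosol mice, and the hydroxytyrosol value was higher in 3 of 36 pairs. The means were 713 ± 180 (SD, n = 6) and 1028 ± 173 (SD, n = 6), a difference of -315 with an interval of -542 to -88.8. The exact permutation test gave p = 0.0195, adjusted to 0.0812 over the 5 indices, which is above 0.05. The unadjusted p stayed below 0.05 without any 1 of the 12 mice, but the difference was -118 with counts thinned to 10000 per mouse (exact permutation test, p = 0.216) and -141 without Moraxellaceae (p = 0.0606). The model mice averaged 962 and the control mice 1316.

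The observed number of ASVs gave a like picture. It was 456, 550.5 and 881 with hydroxytyrosol and 661, 787.5 and 983 with tyrosol (lowest, median, highest), with means of 586 ± 158 and 803 ± 136 (SD, n = 6 each). The difference of -217 had an interval of -404.5 to -27 (exact permutation test, p = 0.0325, adjusted 0.0812), and the unadjusted p went above 0.05, up to 0.0649, without each of 6 mice in turn. Measures that weigh evenness did not pass. Shannon's index averaged 4.43 ± 0.80 and 5.14 ± 0.58 (SD, n = 6 each; interval of the difference -1.58 to 0.17, p = 0.108 by the exact permutation test). Simpson's index averaged 0.825 and 0.872 (p = 0.286) and Pielou's evenness 0.482 and 0.533 (p = 0.177 by the exact permutation test). Counted by genus in place of ASV, the differences in Chao1 and observed number were -13.8 and -4.33, and those in Shannon's, Simpson's and Pielou's measures changed sign to 0.24, 0.0765 and 0.0365.

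**Figure D3:**
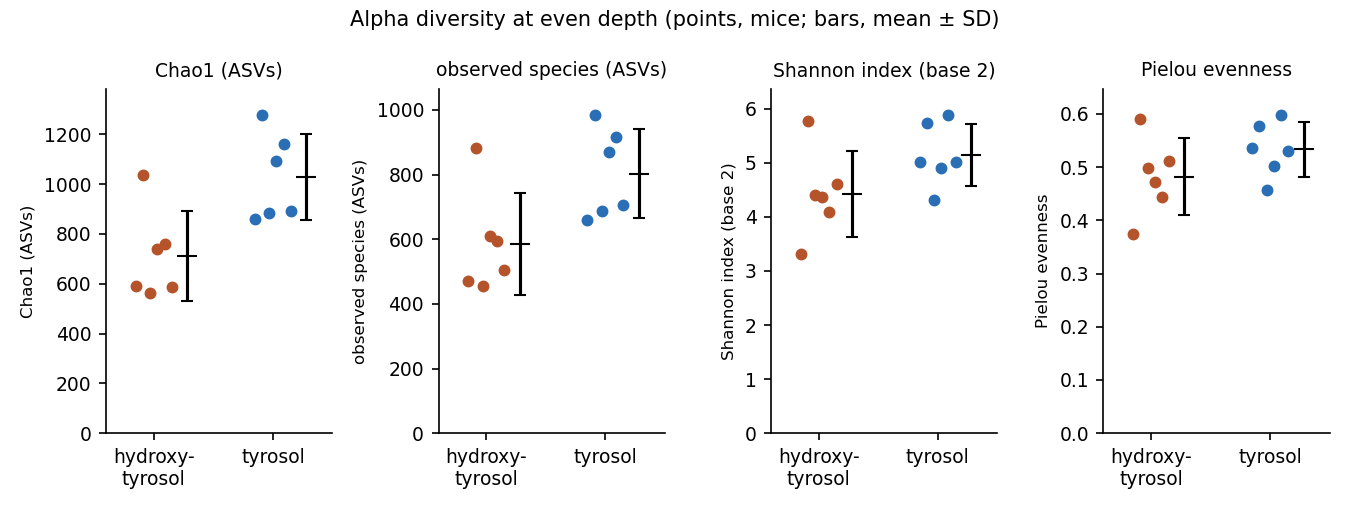
Chao1, observed number of ASVs, Shannon's index (base 2) and Pielou's evenness of each mouse at even depth, with the mean ± SD beside the points of each group. For Chao1 5 of the 6 hydroxytyrosol mice lie below the lowest tyrosol value of 860, while Shannon and Pielou values overlap.

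The largest difference in observed ASVs among the 17 taxa tested lay in Moraxellaceae. This family, to which Acinetobacter belongs, had 5, 22.5 and 174 observed ASVs with hydroxytyrosol and 34, 233 and 350 with tyrosol (lowest, median, highest). The means were 47.5 ± 64.2 and 200 ± 118 (SD, n = 6 each; difference -153, exact permutation test, p = 0.0195, adjusted 0.110 over 17 taxa). Enterococcaceae averaged 22.3 ± 11.1 against 43.7 ± 12.2 (exact permutation test, p = 0.0173, adjusted 0.110), and the phylum Actinobacteria 20.3 ± 3.39 against 35.3 ± 11.6 (exact permutation test, p = 0.0152, adjusted 0.110). Ruminococcaceae, fiber-fermenting anaerobes, ran the other way with 45.0 ± 6.69 against 34.8 ± 6.91 ASVs, higher in 31 of 36 pairs (exact permutation test, p = 0.0346, adjusted 0.147). None of these passed after adjustment. Firmicutes as a whole averaged 361 and 407 (interval of the difference -202 to 114.5) and Bacteroidetes 59.5 and 53.8 (interval -21.5 to 29.5). With Moraxellaceae left out, an alternative chosen after seeing the data, the difference in observed ASVs was -64.3 (exact permutation test, p = 0.262) and that in Shannon's index -1.46 (exact permutation test, p = 0.0173).

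The communities of the 2 groups also differed in Bray-Curtis distance, which compares the shares of all ASVs between samples. The group label accounted for 17.9% of the variation in distances (R2 0.179, exact permutation test, p = 0.0325). The call was lost at genus level (R2 0.167, p = 0.0628 by the same test) and with the replicate block (exact permutation test, p = 0.125). The replicate numbers did not pair the mice, and the block test has 64 assignments and cannot give a p below 0.03125. Hydroxytyrosol mice lay farther from their group's center, at 0.509 ± 0.043 against 0.379 ± 0.120 (SD, n = 6 each), a difference of 0.131 with an interval of 0.018 to 0.233 (exact permutation test, p = 0.0368, up to 0.108 and above 0.05 in 6 of 12 cases without 1 mouse). A difference in spread also moves the test of R2, so a shift of the center and a wider spread cannot be told apart here. Leaving out 1 mouse raised the p of R2 above 0.05 in 9 of 12 cases, up to 0.106, with R2 from 0.159 to 0.247. The mean distance was 0.773 among hydroxytyrosol mice, 0.580 among tyrosol mice and 0.763 between the groups.

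Several mice had as their nearest sample another one led by the same genus. Hydroxytyrosol mice 1 and 6, led by Shigella, were nearest each other, at a distance of 0.362. Hydroxytyrosol mouse 2, led by Acinetobacter, was nearest to tyrosol mouse 2 (0.528), and hydroxytyrosol mouse 3, led by Jeotgalicoccus, to tyrosol mouse 1 (0.440). The first principal coordinate held 37.0% of the variation and did not separate the compounds (exact permutation test, p = 0.152). The second held 23.8% (exact permutation test, p = 0.0130), and the Shigella mice lay at its far end.

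**Figure D4:**
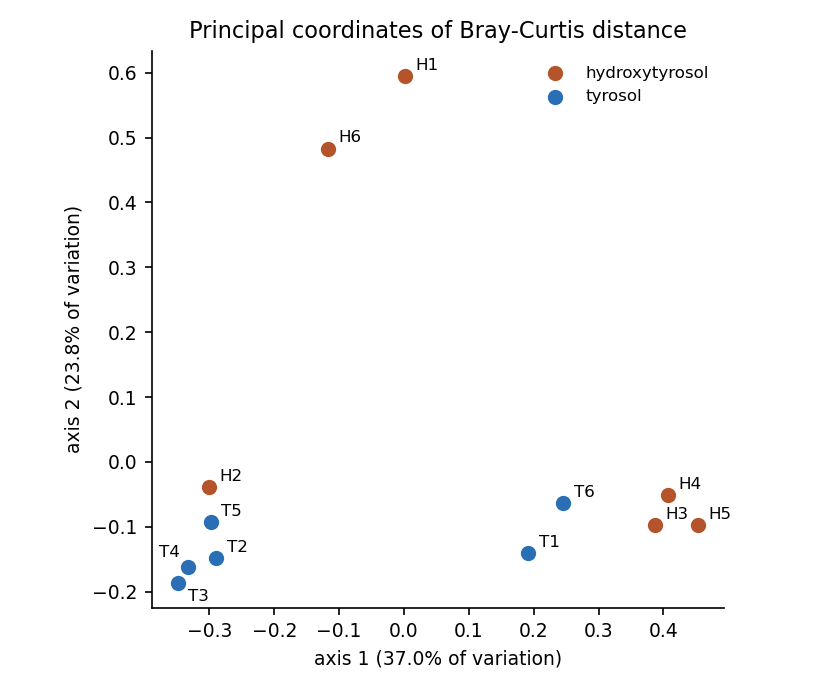
First and second principal coordinates of the Bray-Curtis distances between the 12 samples, with 37.0% and 23.8% of the variation, labelled H1 to H6 for hydroxytyrosol and T1 to T6 for tyrosol. T2 to T5 lie together with H2, H1 and H6 lie apart at the top, and H3, H4 and H5 lie on the right with T1 and T6.

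Most ASVs were found with 1 compound only, and most of those in a single mouse, which can lie in 1 group only, but the ASVs held in common carried most counts. At even depth 2539 ASVs were found with hydroxytyrosol and 2744 with tyrosol, and 590 with both, which is 23.2% of the former and 21.5% of the latter. Of the ASVs found with hydroxytyrosol only, 92.2% were in a single mouse, and of those with tyrosol only, 75.2%. The 590 shared ASVs carried 84.3% and 88.2% of counts. Presence in every mouse was less even: 19 ASVs were found in all 6 tyrosol mice and in no hydroxytyrosol mouse, 2 ASVs the other way round, and 35 in all 12 mice. The ASVs in at least 5 mice of a group and at most 1 of the other numbered 73 for tyrosol and 9 for hydroxytyrosol, or 1.56% and 0.192% of the 4693 ASVs found in the 12 mice.

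The fit across ASVs tested 319, which held 52.1% to 95.2% of the counts of a mouse. Of these 74, or 23.2%, were lower with hydroxytyrosol and 12, or 3.76%, were higher. These numbers are bound to the filter of at least 10 counts in at least 4 mice: 71 of the tested ASVs had no count with hydroxytyrosol and 11 none with tyrosol, and all 82 passed, which the filter nearly fixes, so the counts support nothing by themselves. Among the 237 ASVs found with both compounds 4 passed, 1 higher and 3 lower. Shares did not overlap for 16 ASVs higher with tyrosol (5.02%) and 4 higher with hydroxytyrosol (1.25%). The fit called 111 ASVs at most and 45 at least when 1 mouse was left out, the fewest without tyrosol mouse 4 (45), 2 (48) or 5 (51), and 10 of 117 with a filter of 50 counts.

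The 74 ASVs lower with hydroxytyrosol were minor variants, most of them also found in the other mice on the diet. Summed, they took 2.50% to 12.1% of counts with tyrosol (median 7.01%), with 47 to 70 of them found per mouse. With hydroxytyrosol they took 0 in mice 3, 4 and 5, and between 0.0364% and 0.0862% in mice 1, 2 and 6, where the same number, 3, was found. The model mice held 0.303% to 15.4% (median 7.65%), the salidroside mice 0.455% to 8.37% and the control mice 0.0263% to 8.36%. Of the 74 ASVs, 63 were found in model, 71 in salidroside and 42 in control mice. The sum was chosen on the contrast it describes and has no test.

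By family, beside 23.2% over all ASVs tested, 27 of the 73 Moraxellaceae ASVs were among the 74, and so were 12 of 35 Staphylococcaceae, 10 of 26 Enterococcaceae, 4 of 8 Aerococcaceae, 3 of 3 placed no lower than Bacteria, 2 of 10 Desulfovibrionaceae, 2 of 11 Lactobacillaceae and 1 of 5 Enterobacteriaceae. These counts are a description with no test. ASV_34513, assigned to Acinetobacter lwoffii, averaged 0.449% ± 0.532 in tyrosol mice (SD, n = 6, found in 5) and had no count with hydroxytyrosol, at least 130-fold lower against a floor of 3 counts per library, or at least 80.4-fold without the highest mouse. ASV_68469 of Acinetobacter averaged 0.301% and was at least 87.4-fold lower. ASV_27040, assigned to Staphylococcus sciuri, averaged 0.349%, at least 101-fold above that floor but at least 31.1-fold without its highest mouse. ASV_77528, placed no lower than Bacteria, was found in all 6 tyrosol mice at 0.173% ± 0.055 (SD, n = 6), in all 6 model mice at 0.185% and in no hydroxytyrosol mouse, at least 50.2-fold lower. The 3 lower ASVs found with both compounds were Acinetobacter as well: ASV_57933 averaged 0.0166% against 0.844%, ASV_30884 0.0088% against 0.459% and ASV_23124 0.0019% against 0.170%.

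The lower ASVs can also be set against the other counts of their genus, as a description, since being at or near 0 with hydroxytyrosol is how they were chosen. Hydroxytyrosol mice held 52534 Acinetobacter counts, 31742 of them in mouse 2 and as few as 31 and 34 in mice 3 and 5. Of these counts 136, or 0.259%, fell in the 26 lower Acinetobacter ASVs, in mice 1, 2 and 6. With tyrosol 23721 of 292185 did, or 8.12%, and 2.15% to 15.9% in the single mice. For Staphylococcus of Staphylococcaceae the 4 lower ASVs held 0 of 15379 counts against 2973 of 58839 (5.05%). ASV_14784, a Staphylococcus that the taxonomy placed in Planococcaceae, held 0 of 497 counts under that name against 181 of 1891 (9.57%). For Enterococcus 5 ASVs held 0 of 4181 against 663 of 3225 (20.6%). For Jeotgalicoccus 2 ASVs held 0 of 102641 against 732 of 62941 counts (1.16%), and for Aerococcus 4 ASVs held 0 of 10411, 9178 of them in mouse 3, against 756 of 14266 (5.30%). Shigella ASV_8559 held 0 of 113276 counts with hydroxytyrosol, which allows up to 0.00265%, and 408 of 4866 (8.38%) with tyrosol. Mice 1 and 6 gave nearly all of the former, with 71509 and 41623 counts, and tyrosol mouse 5 gave 3735 of the latter.

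**Figure D5:**
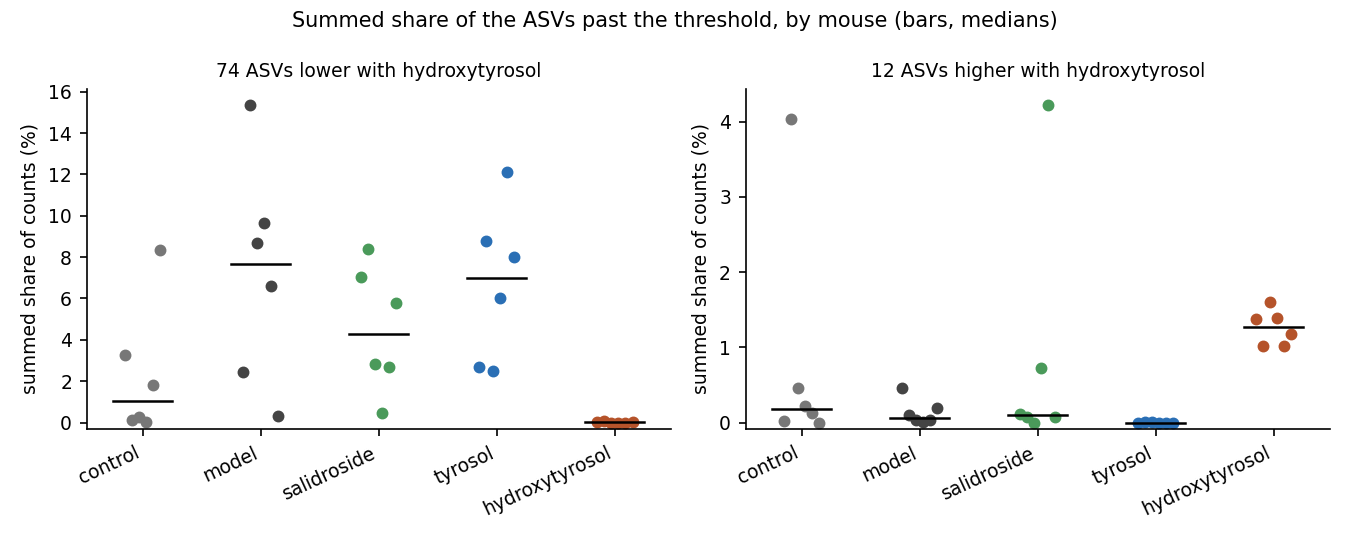
Summed share of counts (%) of the 74 ASVs lower and the 12 ASVs higher with hydroxytyrosol in each mouse of the 5 groups, with medians as bars. The ASVs were chosen on the 2 rightmost groups of each panel, in which they take 2.50% to 12.1% with tyrosol against at most 0.0862% with hydroxytyrosol (left) and at most 0.00475% against 1.013% to 1.61% (right).

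The 12 ASVs higher with hydroxytyrosol, of which 11 had no count with tyrosol, included, beside 3.76% over all ASVs tested, 4 of the 31 Bacteroidetes ASVs tested, 5 of 170 Firmicutes, 2 of 12 Actinobacteria and 1 of 98 Proteobacteria. They summed to 1.013% to 1.61% of counts with hydroxytyrosol (median 1.27%), with 8 to 12 of them found per mouse, and to at most 0.00475% with tyrosol. The model mice held 0.00512% to 0.465%, the salidroside mice 0 to 4.22% and the control mice 0 to 4.04%. Found in all 6 hydroxytyrosol mice and in no tyrosol mouse were ASV_67779 of unnamed Bacteroidales, with 0.0816% ± 0.062 (SD, n = 6, at least 26.7-fold higher), and ASV_2793, assigned to Bacteroides acidifaciens, with 0.0427% (at least 14-fold higher). ASV_2793 made up 212 of 1197 Bacteroides counts, or 17.7%, with hydroxytyrosol and 0 of 1136 with tyrosol. It was found in 5 of 6 control mice and in 1 model mouse.

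ASV_35327 of Desulfovibrionaceae, sulfate-reducing bacteria, was found in 4 hydroxytyrosol mice, at 0.303% on average, and in no tyrosol, model or control mouse (at least 99.1-fold higher than with tyrosol, or at least 54.4-fold without the highest mouse). ASV_16134, assigned to [Ruminococcus] gnavus, averaged 0.255% and was at least 83.6-fold higher, but at least 13.3-fold without its highest mouse. ASV_70946, assigned to Alistipes finegoldii, gave 146 of the 186 Alistipes counts of the hydroxytyrosol mice. The others were Oscillospira ASV_80349 and ASV_936, Adlercreutzia ASV_5597 and ASV_77240, Lactobacillus ASV_53047 and Butyricimonas ASV_79490, at least 5.62-fold to 42.7-fold higher. Allobaculum ASV_84156 was found with both compounds, in 5 and 2 mice, at 0.302% against 0.0013% (log2 fold change 7.86, SE 2.18, edgeR adjusted p = 0.0119).

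The 10 most abundant ASVs took 57.0% of counts with hydroxytyrosol and 55.7% with tyrosol. The 2 Acinetobacter lwoffii variants among them were lower with hydroxytyrosol: ASV_14106 averaged 5.42% against 23.8% and ASV_86274 0.895% against 8.56%, neither past the adjusted threshold (adjusted p = 0.152 for each, exact permutation test). Jeotgalicoccus psychrophilus ASV_48019 averaged 17.8% against 8.13%, a direction that turned by ranks (-0.333), and Staphylococcus sciuri ASV_74631 2.38% against 8.16%. Tyrosol mouse 6 held 30.9% of ASV_74631 and the other tyrosol mice at most 7.74%. Leaving out 1 mouse gave differences of -7.14 to -1.23 points for this ASV. Shigella ASV_74633 and ASV_5205 averaged 13.8% and 4.01% with hydroxytyrosol against 0.665% and 0.0210% with tyrosol (exact permutation test, p = 0.439 and 0.303). Both means came from hydroxytyrosol mice 1 and 6, since the other 4 had at most 0.0626% of either, and by ranks the direction of ASV_74633 turned (-0.667). Sporosarcina ASV_15844 averaged 5.94% with hydroxytyrosol, nearly all from mouse 4 at 34.1%, and had no count with tyrosol. Aerococcus ASV_75238 averaged 1.73% against 2.16%, and Clostridium ramosum ASV_80110 2.67% against 1.21%. Hydroxytyrosol mouse 3 was the highest of its group for both, with 8.99% and 11.2%, while the other 5 had at most 0.614% and 1.76%. The difference in ASV_75238 was -1.89 points without that mouse and 0.490 points without tyrosol mouse 1, which held 6.78%. The difference in ASV_80110 was -0.240 points without hydroxytyrosol mouse 3.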

How the data were processed

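The 16S rRNA gene was amplified from feces and sequenced. The authors deposited tables of read counts per ASV, unfiltered, filtered and at even depth, with a taxonomy. The study describes FLASH, QIIME and chimera removal, and clustering of operational taxonomic units, while the tables list ASVs; the submitters' processing notes name cutadapt, and taxonomy version is not given in the sources used here. Primer choice, read loss and copies of the gene per genome can shift shares.

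From the deposited counts, shares, diversity (even-depth table) and Bray-Curtis distances were computed (Python 3.11.15, numpy 2.4.6, scipy 1.17.1, pandas 2.3.3, matplotlib 3.10.9). Groups came from the labels, with mice numbered by the labels' titles, whose numbers differ from those in the tables. Of the pairs of mice within groups, 0 of 30 had identical counts. Single values had two-sided exact permutation tests over 924 splits, with Benjamini-Hochberg adjustment within 5 diversity, 31 share and 17 observed-ASV tests. Intervals are 95% and invert that test. Phyla, families, genera and ASVs that reached 10 counts in 4 or more of the 12 mice were fitted by edgeR 4.0.16 (R 4.3.3, limma 3.58.1) with TMM factors and its quasi-likelihood test. Scripts were tested on simulated data.

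Named taxa were 5 phyla, 14 genera, up to 15 called taxa per level by log2 fold change (below 10, those of smallest p up to 10), the 10 most abundant ASVs, and the 4 most abundant members of each of 11 lists. Taxa and lists were chosen with earlier results of these data known. Others named in the text (the remaining higher ASVs, ASV_8559 and the lower ASVs found in both groups) were chosen after their values were seen. Alternatives were DESeq2 1.42.0, centered log ratios (0.5 added), other filters, tables, scalings and depths, all 30 mice, a replicate block and each mouse left out. Tests of observed ASVs by taxon and diversity without Moraxellaceae were chosen after seeing the data. No sequence is printed.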

Additional observations from a re-analysis of the deposited data

Results flagged for a closer look

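In 16 of 106 sets of 6 values examined (1 measure in 1 treatment group), 1 mouse stood apart from the other 5 by Dixon's criterion. For normally distributed values chance alone gives such a case in about 1 in 20 groups. Many sets here are skewed shares, so 16 of 106 cannot be set against that rate. In each case the mouse that stood apart was the highest. Many of these measures also overlap, such as a family and its genus. Hydroxytyrosol mouse 2 had 881.0 observed species, with 456 to 610 in the others, 10.3% Kurthia against at most 0.00503%, and 0.132% of counts placed no lower than Bacteria against at most 0.0466%. Hydroxytyrosol mouse 4 had 43.1% Sporosarcina against at most 2.19%. Hydroxytyrosol mouse 5 had 8.15% Atopostipes against at most 0.825%. Hydroxytyrosol mouse 6 had 1.56% [Odoribacteraceae] against at most 0.574% and 1.497% Odoribacter against at most 0.431%. The same mouse had 0.271% Chitinophagaceae and 0.265% Sediminibacterium, each against at most 0.0945%.

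Tyrosol mouse 5 had 3.86% Shigella against at most 0.442%, 4.19% of the listed enterobacteria against at most 0.714% and 4.28% Enterobacteriaceae against at most 0.870%. It also had 3.07% Planococcaceae against at most 1.19%, and 0.154% Alkanindiges against at most 0.0580%. Tyrosol mouse 6 had 40.6% Staphylococcus against at most 10.3%. Tyrosol mouse 2 had 2.47% of the listed Erysipelotrichaceae against at most 0.601%. What set these mice apart was not tested.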

How the results depend on the processing

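Of 1694 alternative values of 90 results, 1429 kept direction and side of the threshold, 104 lost and 57 gained a call, 55 changed sign and 49 moved; the cause was not tested. By genus, the differences (hydroxytyrosol minus tyrosol) were 0.24 for Shannon, 0.0765 for Simpson, 0.0365 for Pielou, -13.8 for Chao1 and -4.33 for observed ASVs, and R2 was 0.167 (exact permutation test, p = 0.0628). Without Moraxellaceae, chosen after seeing the data, they were -1.46, -0.118, -0.151, -141 and -64.3 (exact permutation test, p = 0.0173, 0.0152, 0.0152, 0.0606 and 0.262). Thinned to 10000 counts, Chao1 differed by -118 (exact permutation test, p = 0.216).

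Replicate numbers in the titles did not pair the mice (correlations of deviations -0.11, 0.31, -0.03, 0.03, -0.15 and -0.18). The exact tests with that block have 64 assignments and cannot give a p below 0.03125. With the replicate block R2 was 0.179 and the spread 0.131 (exact permutation test, p = 0.125 for each), Acinetobacter -36.1 (p = 0.125), lactic acid bacteria 2.92 (p = 0.0625), and 0 families, 0 genera and 77 ASVs were called.

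On totals without Acinetobacter, and without all listed aerobes, differences were 16.8 and 18.0 points for Proteobacteria, -6.11 and -9.65 for Firmicutes, and -1.62 and -1.48 for Bacteroidetes. Actinobacteria differed by -6.61 and -4.72 (exact permutation test, unadjusted p = 0.00433 and 0.0108). Verrucomicrobia and Akkermansia each differed by -1.20 and -0.857, and the listed Clostridiales by -2.07 and -1.31. The listed Bacteroidales differed by -1.78 and -1.70, and mucus-layer bacteria by -1.33 and -0.937. Without Acinetobacter, the aerobes were 8.98, Enterococcus -0.135 and Ruminococcus -0.00824. On the log10 scale Jeotgalicoccus was -0.18 and Enterococcus -0.047. By ranks Jeotgalicoccus, Shigella and ASV_74633 were -0.667, ASV_48019 and ASV_80110 -0.333 and Firmicutes to Bacteroidetes 0.333.

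Called phyla numbered 1 without TMM, with TMMwsp, centered log ratios, no filter, all 30 mice or the unfiltered table, 2 with a 50-count filter and 3 with DESeq2. Families numbered 9 (DESeq2), 4 (no filter), 3 (50 counts), 3 (even depth) and 0 (all mice). Genera numbered 15 (DESeq2), 5 (centered log ratios), 3 (even depth) and 0 (all mice, unfiltered). ASVs numbered 51 (centered log ratios, 23 higher), 11 of 5590 (no filter, 7 higher), 10 (50 counts), 36 (even depth) and 99 (DESeq2, 30 higher).

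Leaving out each mouse gave -0.99 to -0.50 for Shannon, -0.0731 to -0.0299 for Pielou, -276 to -181 for observed ASVs, 0.159 to 0.247 for R2, 0.101 to 0.205 for spread, -2.43 to -1.34 for Actinobacteria, -0.208 to 0.738 for Verrucomicrobia and Akkermansia, -1.24 to 0.0656 for Collinsella, -0.0626 to 1.99 for Kurthia, -8.38 to 7.21 for staphylococci, -1.21 to 0.0913 for gut Actinobacteria, -0.272 to 0.770 for mucus-layer bacteria, -0.79 to 0.45 for Firmicutes to Bacteroidetes, -1.22 to 0.0672 for ASV_11531, -1.89 to 0.490 for ASV_75238 and -0.240 to 1.92 for ASV_80110. Called were 0 to 2 phyla, 0 to 4 families, 0 to 1 genera and 45 to 111 ASVs. Depth limits shares below 0.00417%, and 6 mice a side limit every p.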
